A study of Mus musculus with 8 samples.

Results

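Il12a, which encodes a chain of the cytokines IL-12 and IL-35, lies on mouse chromosome 3 between Schip1 on one side and 1110032F04Rik, Ift80, Smc4, Trim59 and Kpna4 on the other. These 6 protein-coding neighbours were taken, by Ensembl identifier and symbol, from 47069 Ensembl genes present in both deposited tables, and 5 of them were among the 12273 genes high enough to be tested. Schip1 was too low. In the files' identifiers they are ENSMUSG00000027777 (Schip1), ENSMUSG00000046999 (1110032F04Rik), ENSMUSG00000027778 (Ift80), ENSMUSG00000034349 (Smc4), ENSMUSG00000034317 (Trim59) and ENSMUSG00000027782 (Kpna4). They were chosen by their place in the genome and by their levels in one cell population against the other. That difference is therefore given here as a description, without p-values. Where a call of a member in this contrast is listed, nothing is read from it. Il12a itself is not one of the 6.

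The libraries hold RNA of regulatory T cells (Tregs), CD4 T cells that restrain immune responses. The mice were of strain C57BL/6, 6 to 8 weeks old, and both groups came from the same cross, 35EbiT × Blimp1-GFP KI. Ebi3-Treg cells were sorted from lymph node as CD4+CD25+, low for CD62L, Thy1.1+ and Blimp1-. Blimp1-Treg cells were sorted by the same surface gate but as Thy1.1- and Blimp1+. Ebi3 encodes the partner of the Il12a chain in IL-35, and Blimp1 (gene Prdm1) is a transcriptional repressor of effector lymphocytes. How Thy1.1 is tied to Ebi3 in the reporter, and whether a library holds 1 mouse or several, the labels do not say. Each population had 4 libraries, and replicates 1 and 2 of both were deposited in a first table and replicates 3 and 4 in a second.

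The neighbours work in unrelated processes. Smc4 is an ATPase core subunit of condensin, the ring complex that compacts chromosomes for cell division. Ift80 is a subunit of intraflagellar transport complex B (IFT-B), which carries cargo along cilia, organelles that T cells lack, and other IFT-B subunits take part in vesicle traffic at the immune synapse. Trim59 encodes a membrane-anchored protein of the TRIM family of ubiquitin ligases. Kpna4 encodes an importin alpha, an adaptor that brings proteins into the nucleus. Schip1 encodes a binding partner of merlin, the product of Nf2. 1110032F04Rik is a single-exon gene whose protein has no settled function. Ift80 and Smc4 sit next to each other on opposite strands and point away from each other.

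Depth behind the values ran from 13.3 M to 31.3 M fragments per library. Foxp3, the defining factor of Tregs, stood at 182 to 406 FPKM (fragments counted, scaled by gene length and library size) in the 8 libraries, and Cd4, Cd3e and Il2ra were present in all. B cell markers were high in the libraries numbered 1, where Cd79a reached 65.1 (Ebi3-Treg) and 52.0 FPKM (Blimp1-Treg), against at most 2.31 FPKM elsewhere. Xist, made from the inactive X chromosome, was at most 0.0750 FPKM in the first table and at 18.5 to 24.4 FPKM in the second. Sex and table cannot be told apart. In bulk RNA, fewer cells with a transcript and less transcript per cell cannot be told apart either.

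Schip1, Trim59 and Kpna4, 3 of the members, have a promoter entry in RefSeq (GRCm38.p6). The last pair is shown for the contrast in their values described next, since Trim59 was higher in every Ebi3-Treg library and Kpna4 was not. Each sequence is the 250 bases before the annotated start, 5′ to 3′ on the gene's strand. Capitals mark, on either strand, the letters of the NF-Y box (CCAAT), the core letters of the cell cycle homology region (TTTGAA) and core letters of sites bound by Blimp1 and by interferon regulatory factors (GAAAGT). No match overlaps another.
Trim59, chr3:69044743-69044992, minus strand: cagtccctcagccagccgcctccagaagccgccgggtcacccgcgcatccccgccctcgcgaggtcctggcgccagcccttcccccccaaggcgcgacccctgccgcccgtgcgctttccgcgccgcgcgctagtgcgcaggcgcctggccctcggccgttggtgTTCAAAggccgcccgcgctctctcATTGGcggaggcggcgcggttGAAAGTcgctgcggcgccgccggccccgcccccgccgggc
Kpna4, chr3:69127093-69127342, minus strand: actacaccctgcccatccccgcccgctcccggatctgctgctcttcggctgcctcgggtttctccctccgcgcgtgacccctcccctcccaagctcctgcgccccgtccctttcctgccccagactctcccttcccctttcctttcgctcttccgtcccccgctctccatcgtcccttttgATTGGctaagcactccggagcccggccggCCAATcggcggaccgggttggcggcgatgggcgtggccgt
CCAAT was found in both, once in Trim59 and in 2 places in Kpna4, and is in 33.8% of all 32851 promoter windows of this length. The letters TTTGAA were found in Trim59 and not in Kpna4, and are in 16.0% of windows. The same held for GAAAGT, which is in 12.3% of windows. Of the other motifs searched, the E box CACGTG (6.02% of windows) was in neither, and the GC box GGGGCGGGG (10.4% of windows) was in Trim59 near its start. G and C made up 77.6% of the Trim59 window and 68.4% of the Kpna4 window, against a median of 52.4% over all windows. Schip1, whose windows are not printed, has TTTGAA in its window 1 and CCAAT in its window 3. A match of so few letters is a description of the sequence.

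1110032F04Rik separated the populations most cleanly. It was at 17.5, 17.1, 16.9 and 19.7 FPKM in Ebi3-Treg 1 to 4 and at 2.68, 3.12, 3.47 and 2.59 FPKM in Blimp1-Treg 1 to 4. All 4 Ebi3-Treg libraries lay well above all Blimp1-Treg libraries, and neither group spread much. The means were 17.8 ± 1.32 and 2.96 ± 0.411 FPKM (SD, n = 4), a ratio of 6.00. The log2 difference was 2.25 (SE 0.15) on the log2(FPKM + 1) scale, where the first table gave 2.23 and the second 2.27. With a pseudocount of 0.1 in place of 1 the log2 difference was 2.55. Its values correspond to 580 to 1157 reads in Ebi3-Treg and 98 to 216 in Blimp1-Treg. Gm17641, an unconfirmed gene model on the other strand, shares 26.4% of its exon bases and was at 0.196 to 0.578 FPKM. Reads of the shared stretch cannot be assigned without strand.

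Ift80, the next gene along, differed by about as much. It was at 124.9, 94.3, 170 and 196 FPKM in Ebi3-Treg 1 to 4, and at 21.5, 21.1, 34.1 and 39.8 FPKM in Blimp1-Treg 1 to 4. Again the populations did not overlap, while replicates 3 and 4 were higher than replicates 1 and 2 in both. The means were 146 ± 45.6 and 29.1 ± 9.33 FPKM (SD, n = 4), a ratio of 5.03, and the log2 difference was 2.29 (SE 0.14). The first table gave 2.30 and the second 2.28.

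Smc4 had the highest level of the 6 and a smaller difference. It was at 406, 598, 472 and 533 FPKM in Ebi3-Treg 1 to 4 and at 225, 365, 195 and 199.6 FPKM in Blimp1-Treg 1 to 4. The populations did not overlap, but Blimp1-Treg 2 came close to Ebi3-Treg 1. The means were 502 ± 82.2 and 246 ± 80.5 FPKM (SD, n = 4), a ratio of 2.04, with a log2 difference of 1.06 (SE 0.22). The first table gave 0.78 and the second 1.34. Both libraries numbered 2 were the highest of their population.

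Trim59 was at 150.9, 149, 150.3 and 185 FPKM in Ebi3-Treg 1 to 4 and at 105, 119, 116 and 109 FPKM in Blimp1-Treg 1 to 4. The groups did not overlap, though the ratio of the means was the smallest among the neighbours so separated. The means were 159 ± 17.2 and 112 ± 6.69 FPKM (SD, n = 4), a ratio of 1.41 and a log2 difference of 0.49 (SE 0.12).

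Kpna4 was nearly level. It was at 40.4, 29.0, 33.5 and 35.9 FPKM in Ebi3-Treg 1 to 4 and at 37.9, 30.4, 33.4 and 32.4 FPKM in Blimp1-Treg 1 to 4. The ranges overlapped, and the libraries numbered 1 were the highest and those numbered 2 the lowest of both populations. The means were 34.7 ± 4.76 and 33.5 ± 3.16 FPKM (SD, n = 4), and the log2 difference of 0.04 (SE 0.15) was smaller than its error. Its sign turned with scaling to a common upper quartile and without Ebi3-Treg 1 or Blimp1-Treg 2.

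**Figure D1:**
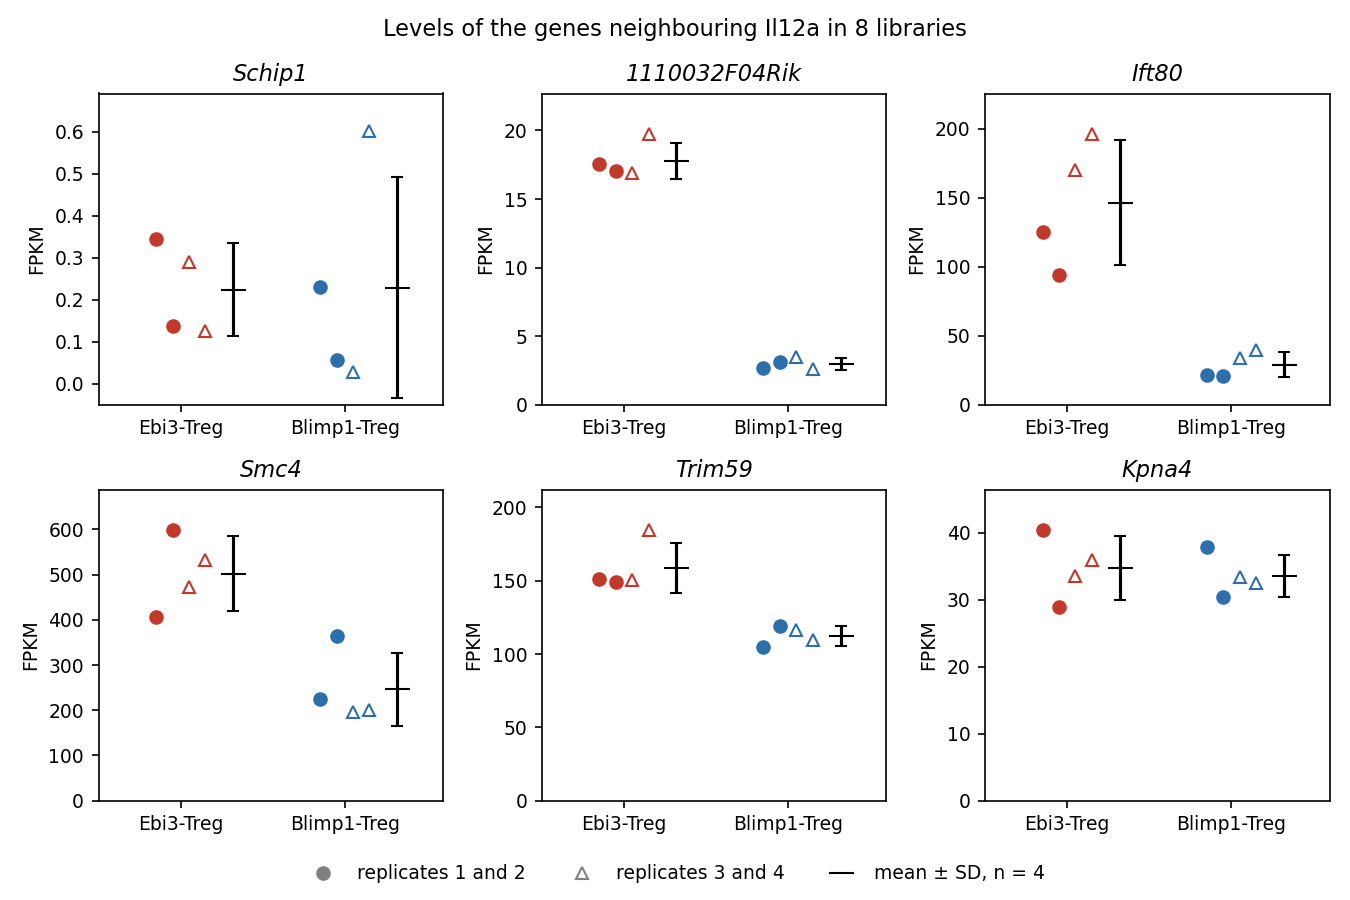
FPKM of each of the 6 genes (y axis, linear, own range per panel) in the 4 Ebi3-Treg and 4 Blimp1-Treg libraries (x axis); filled circles are replicates 1 and 2, open triangles replicates 3 and 4, and the bar beside them is the mean ± SD. Every Ebi3-Treg point lies above every Blimp1-Treg point for 1110032F04Rik, Ift80, Smc4 and Trim59, while the ranges of Kpna4 and Schip1 overlap.

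Schip1, on the far side of Il12a, was close to the limit of detection. It was at 0.345, 0.137, 0.290 and 0.125 FPKM in Ebi3-Treg 1 to 4 and at 0.229, 0.0566, 0.0287 and 0.6005 FPKM in Blimp1-Treg 1 to 4, which stands for 1 to 16 reads. No difference between the populations could be seen at this depth. Of its exon bases, 39.1% are shared with Iqschfp, a read-through model on the same strand that is listed at 0 in all 8 libraries, so its level is uncertain. Il12a was as low, at 1.49, 0.181, 0.205 and 0 FPKM in Ebi3-Treg 1 to 4 and 0.961, 0.0467, 0.379 and 0.186 FPKM in Blimp1-Treg 1 to 4. Those values rest on 42, 4, 3 and 0 reads and on 33, 1, 8 and 3 reads. Most of these reads were in the libraries numbered 1, which also held the B cell transcripts.

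The 4 members whose populations did not overlap, all with higher Ebi3-Treg values, can be set beside the 6.63% of tested genes for which every Ebi3-Treg library was above every Blimp1-Treg library. With limma, 1110032F04Rik, Ift80 and Smc4 were among the 6.29% of tested genes past an adjusted p of 0.05 in this contrast, or 3.37% counted in that direction only. Since the contrast chose the members, nothing is read from these counts. With the replicate number as a block, Trim59 was past the threshold as well, in a fit that called 2752 of the 12273 genes, 1655 of them higher. Smc4 was no longer past it when Ebi3-Treg 2, 3 or 4 or Blimp1-Treg 1, 3 or 4 was left out, or without the filter on low values. With replicates 1 and 2 alone 0 members were past it, where the whole table had 0 calls and 707 genes at an unadjusted p under 0.05.

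In gene order on one side of Il12a, the log2 differences were 2.25 for 1110032F04Rik, 2.29 for Ift80, 1.06 for Smc4, 0.49 for Trim59 and 0.04 for Kpna4. The median over all tested genes was 0.07. These values come from the contrast that chose the members. Il12a and Schip1, its neighbour on the other side, were too low to be tested. No dependence on distance from Il12a is therefore read from this order. Among the 10 protein-coding genes on each side of Il12a in reference order, 14 are not members. Of these, 7 were too low to be tested, and 0 of the other 7 passed in limma, with 1 at an unadjusted p under 0.05. Their log2 differences ran from -0.57 to 0.48, with a median of 0.07. The one at an unadjusted p under 0.05 was Lxn, which encodes latexin, a carboxypeptidase inhibitor, with means of 13.8 ± 1.69 and 21.0 ± 2.83 FPKM (SD, n = 4) in Ebi3-Treg and Blimp1-Treg. Its log2 difference was -0.57 (limma adjusted p = 0.0686, 0.00495 with the replicate block, and 0.0419 and 0.0431 without both libraries numbered 1 or 2). Beyond Kpna4, Ppm1l, a protein phosphatase gene, had a log2 difference of 0.48 (SE 0.43), where the first table gave -0.09 and the second 1.05.

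**Figure D2:**
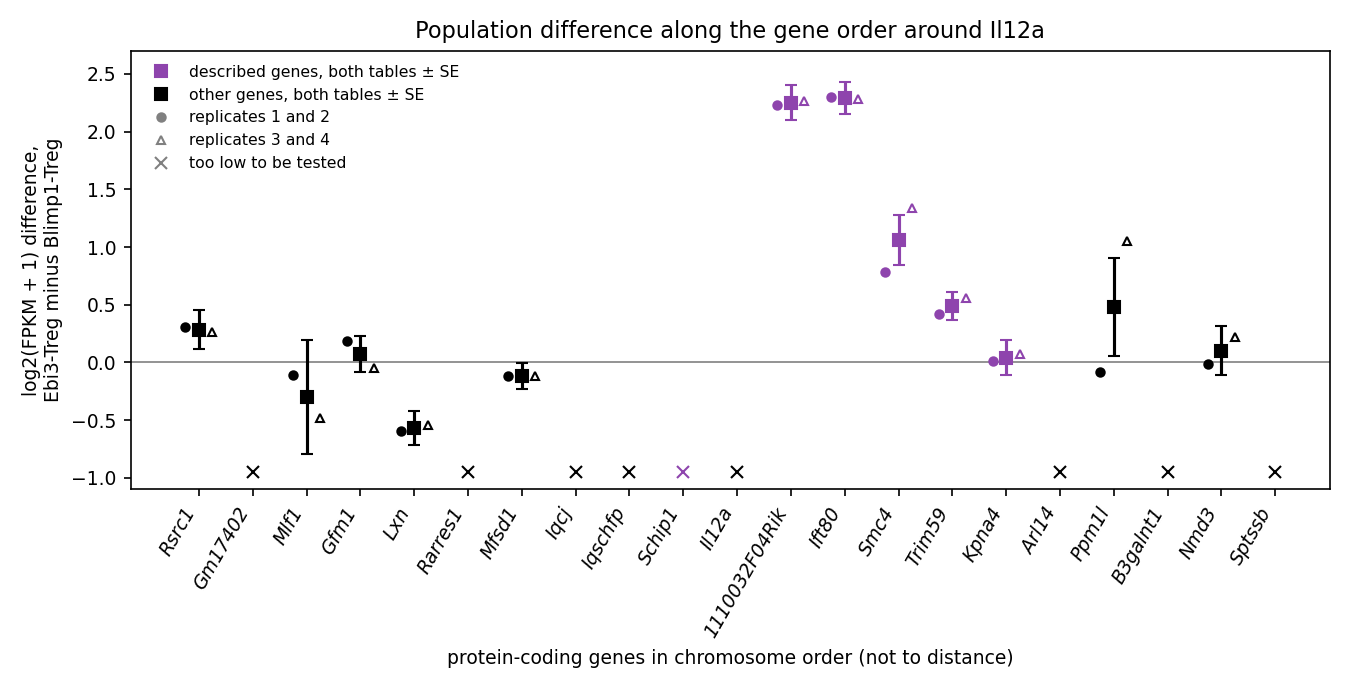
Log2(FPKM + 1) difference, Ebi3-Treg minus Blimp1-Treg (y axis), of the 10 protein-coding genes on each side of Il12a in chromosome order, not to distance (x axis); squares are estimates from both tables with their SE, circles replicates 1 and 2, triangles replicates 3 and 4, and crosses genes too low to be tested. The 4 genes from 1110032F04Rik to Trim59 lie between 0.49 and 2.29, and the tested genes further out lie between -0.57 and 0.48.

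None of the other condensin genes passed the test in the direction of Smc4. Smc4 was chosen with this contrast known, so its place among them is a description. Condensin had 8 genes tested, and of the 7 besides Smc4, 0 were higher in Ebi3-Treg, 2 were lower and 5 did not pass, with a median log2 difference of -0.59 and 1, Ncaph2, above 0 (0.03, SE 0.13). Ncaph, the kleisin subunit of condensin I, was at 12.9, 7.55, 3.50 and 3.43 FPKM in Ebi3-Treg 1 to 4 and at 23.7, 17.9, 14.8 and 22.4 FPKM in Blimp1-Treg 1 to 4, a log2 difference of -1.55 (SE 0.29, limma adjusted p = 0.021). That call was lost without the filter on low values, without the table term, or when any 1 library other than Ebi3-Treg 1 and Blimp1-Treg 2 was left out, with an adjusted p of 0.0505 to 0.0804 in these fits. Ncapg was lower by a log2 difference of -1.14 (SE 0.20, limma adjusted p = 0.0163), which was lost without Ebi3-Treg 4 (0.0578) or Blimp1-Treg 4 (0.065). Smc2, the partner that pairs with Smc4 in every condensin, was at 14.3, 20.1, 9.13 and 11.9 FPKM in Ebi3-Treg 1 to 4 and 19.97, 31.4, 15.8 and 18.0 FPKM in Blimp1-Treg 1 to 4. Its log2 difference was -0.59 (limma adjusted p = 0.147, 0.00573 with the replicate block, and 0.0228 and 0.0352 without both libraries numbered 1 or 2).

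The ratio of Smc4 to Smc2 within a library was 28.5, 29.7, 51.7 and 44.7 in Ebi3-Treg 1 to 4 and 11.2, 11.6, 12.3 and 11.1 in Blimp1-Treg 1 to 4. It was nearly constant in Blimp1-Treg (11.6 ± 0.557) and higher and more spread in Ebi3-Treg (38.7 ± 11.4, SD, n = 4). Both values are FPKM, so the size of the ratio depends on the gene lengths the authors used, while the fold between populations does not. Over Ncapd2, another condensin subunit, the ratio of Smc4 was 6.34, 27.3, 10.5 and 10.3 in Ebi3-Treg 1 to 4 and 3.40, 16.2, 2.57 and 2.68 in Blimp1-Treg 1 to 4. Those ranges overlapped, with both libraries numbered 2 the highest of their population. Of 20 proliferation genes, 12 were lower, 0 higher and 8 did not pass, all 20 with a negative log2 difference and a median of -1.28. Rrm2, a ribonucleotide reductase subunit, was the one with the smallest p (log2 difference -1.76, limma adjusted p = 0.00124). The number lower was 16 with the replicate block, 0 in replicates 1 and 2 alone, 6 without Ebi3-Treg 4 and 7 without Blimp1-Treg 3 or without the table term. Of all 12273 tested genes, 359 were lower in the fit where 12 of the 20 were, and 1097 with the replicate block. Summed over the 20 genes, FPKM was 645 to 1005 in Ebi3-Treg and 1157 to 1487 in Blimp1-Treg. Of 7 genes of cohesin and the Smc5/6 complex, relatives of condensin, 0 passed, none of them at an unadjusted p under 0.05, with a median of -0.04.

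Ift80 stood above the rest of IFT-B. It too was chosen with this contrast known, so its place there is a description. The list had 18 genes, 3 of them too low to be tested. Of the 14 tested besides Ift80, 0 passed in limma, with 5 at an unadjusted p under 0.05. All 14 had a positive log2 difference, from 0.09 to 1.22, with a median of 0.32, against 2.29 for Ift80. With the replicate block 4 of the 14 were higher, namely Ift172, Ift46, Ift74 and Traf3ip1, in a fit where 1655 of the 12273 genes were. Ift172, a large scaffold subunit, was at 15.6, 4.95, 20.6 and 23.9 FPKM in Ebi3-Treg 1 to 4 and 4.87, 1.99, 11.2 and 7.38 FPKM in Blimp1-Treg 1 to 4 (log2 difference 1.22, SE 0.36, limma adjusted p = 0.0958, and 0.00284 with the replicate block). The ratio of Ift80 to Ift52, another IFT-B subunit with a similar level in all libraries, was 2.15, 1.71, 2.85 and 2.92 in Ebi3-Treg 1 to 4 and 0.453, 0.398, 0.595 and 0.749 in Blimp1-Treg 1 to 4. Of 6 IFT-A genes, which form the complex of return transport, 0 passed (0 at an unadjusted p under 0.05, median 0.32).

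**Figure D3:**
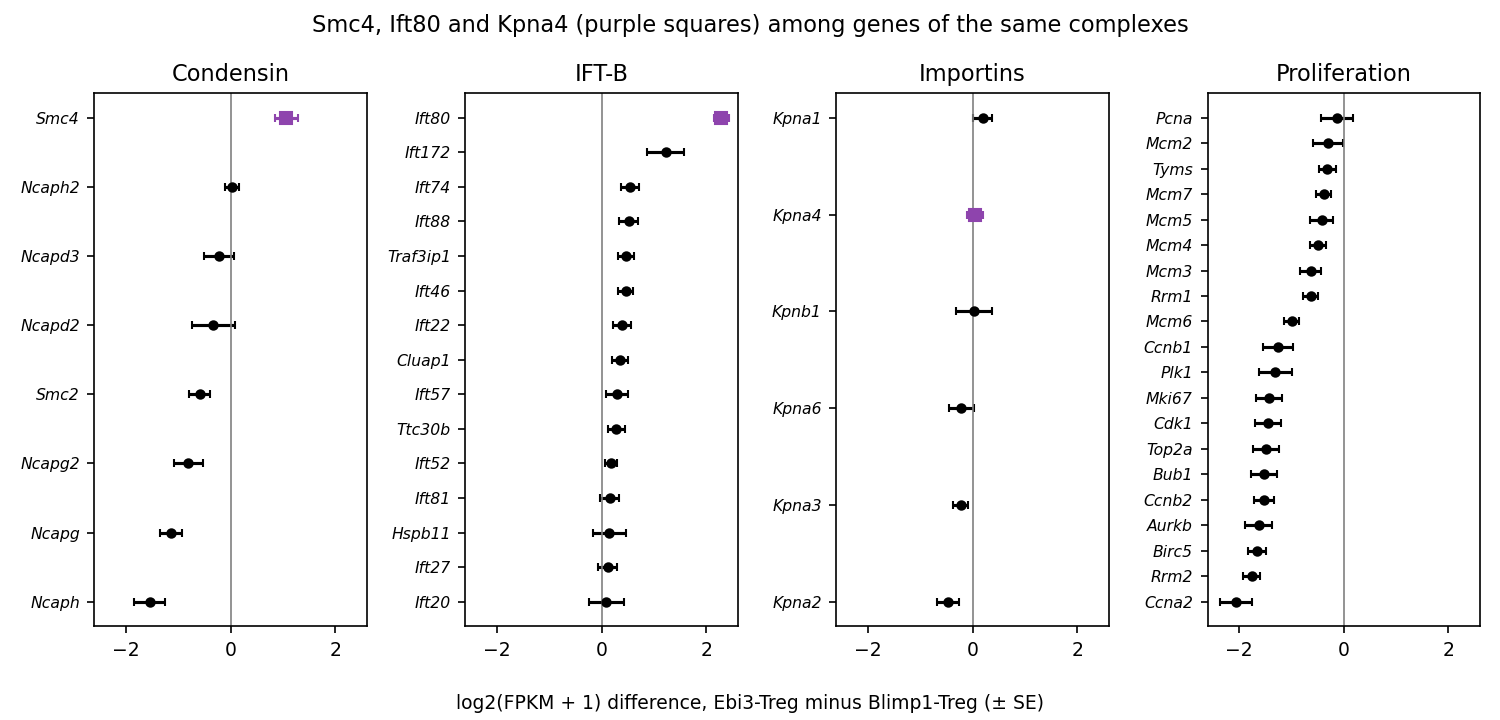
Log2(FPKM + 1) difference, Ebi3-Treg minus Blimp1-Treg, with its SE (x axis), for the tested genes of condensin, IFT-B, the importins and proliferation (one panel each, genes on the y axis in order of their value). Smc4 at 1.06 lies apart from the other condensin genes at -1.55 to 0.03, Ift80 at 2.29 above the other IFT-B genes at 0.09 to 1.22, and Kpna4 at 0.04 among importins at -0.47 to 0.19.

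Kpna4 lay within the range of its family. Of the 5 other importin genes tested (Kpna1, Kpna2, Kpna3, Kpna6 and Kpnb1), 0 passed in limma and 0 were at an unadjusted p under 0.05, with a median log2 difference of -0.21. With the replicate block 1 was lower, Kpna2, which had the most negative log2 difference (-0.47). Of the genes tied to Schip1, Nf2 was the 1 that could be tested, with a log2 difference of -0.44 (SE 0.25, limma adjusted p = 0.435). Iqcj and Ank3 were too low.

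**Figure D4:**
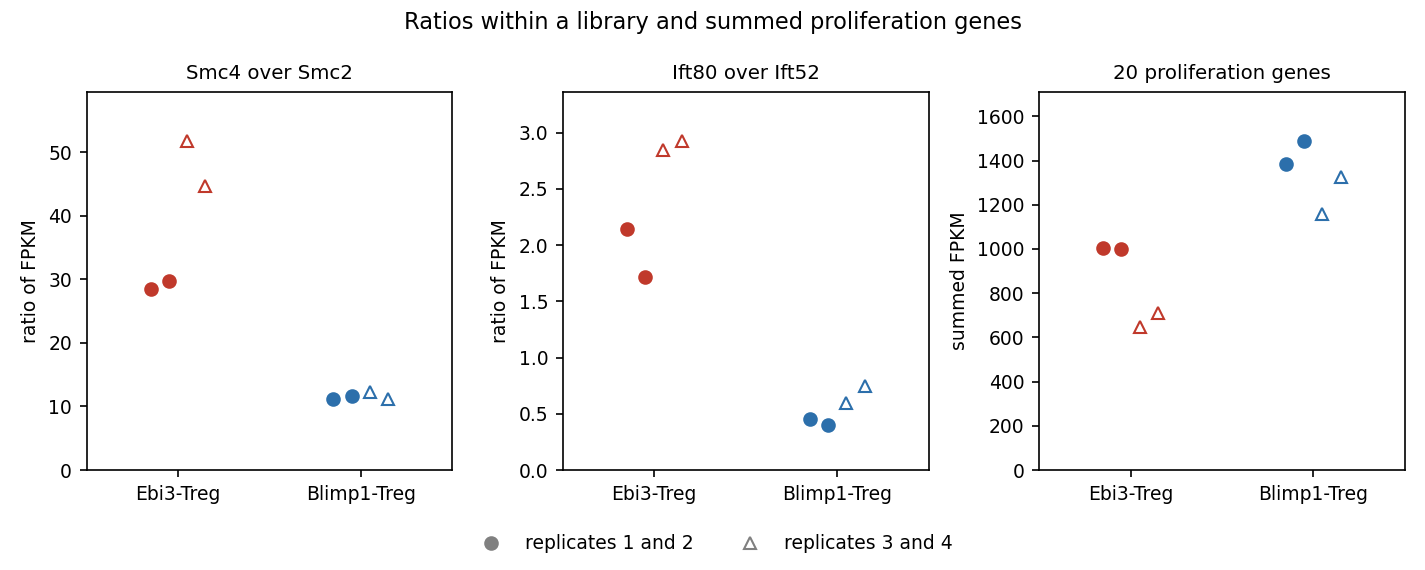
Ratio of Smc4 to Smc2 and of Ift80 to Ift52 within each library, and the FPKM summed over 20 proliferation genes (y axes, linear from 0), in the 4 libraries of each population (x axis); circles are replicates 1 and 2, triangles replicates 3 and 4. Smc4 over Smc2 is 28.5 to 51.7 in Ebi3-Treg and 11.1 to 12.3 in Blimp1-Treg, while the proliferation sum is higher in every Blimp1-Treg library.

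Set side by side per length, the order of the deposited levels in Ebi3-Treg was Smc4, Trim59, Ift80, Kpna4, 1110032F04Rik and Schip1. Trim59 and Ift80 were not apart there, since each was the higher in 2 of the 4 libraries. In Blimp1-Treg, Ift80 was lower in the order and its range overlapped with that of Kpna4. By mean over the 8 libraries, Smc4 was above 98.3% of tested genes, Trim59 above 92.6%, Ift80 above 87.2%, Kpna4 above 67.5% and 1110032F04Rik above 39.9%. The order leans on the lengths behind the values. Reads came out whole with the reference exon length for 1110032F04Rik (2578 bases), but with shorter lengths for Smc4 (1603 against 5210 bases), Ift80 (2520 against 12428), Trim59 (1312 against 3352) and Kpna4 (4335 against 8940). With the reference lengths, the Ebi3-Treg means would be 155 for Smc4, 62.1 for Trim59, 29.7 for Ift80, 17.8 for 1110032F04Rik and 16.8 for Kpna4, so 1110032F04Rik and Kpna4 trade places. Ratios between populations are the same with either length.

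The difference between the tables is independent of how the genes were chosen, and 1 of the 5 tested members differed by it, in a contrast where 8.41% of all tested genes did. Ift80 had a mean of 65.5 FPKM in replicates 1 and 2 and 110.1 FPKM in replicates 3 and 4, a log2 difference of 0.76 (SE 0.14, limma adjusted p = 0.0234), and was higher in replicates 3 and 4 within both populations. The adjusted p was 0.0686 without the filter on low values and up to 0.0971 when Ebi3-Treg 2, 3 or 4 or Blimp1-Treg 3 or 4 was left out. The log2 differences of the others were 0.06 for 1110032F04Rik, -0.26 for Smc4, 0.08 for Trim59 and -0.01 for Kpna4, with limma adjusted p values of 0.802, 0.41, 0.645 and 0.958. No gene of the table passed a test of whether its population difference differed between the tables (0 calls, 203 genes at an unadjusted p under 0.05). Without both libraries numbered 1, Smc4 was lower in replicates 3 and 4 by a log2 difference of -0.57 (limma adjusted p = 0.0162), in a fit that called 7405 of the 12273 genes. Without both libraries numbered 2 its log2 difference was 0.06 (limma adjusted p = 0.79).

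Over the 8 libraries together, the members that differed between populations correlated with each other, a measure that includes this difference. After the mean of each table was taken off, log2(FPKM + 1) of 1110032F04Rik and Ift80 had a Pearson r of 0.99 over the 8 libraries, Smc4 and Trim59 one of 0.93, and Ift80 and Smc4 one of 0.87. Kpna4 had an r of -0.18 to 0.22 with the others. For Ift80, 1110032F04Rik ranked 13 and Smc4 ranked 702 by r among the 12272 other tested genes. Within each population, the library numbered 2 had the lowest Ift80 and the highest Smc4. The population difference that chose the members enters all of these r values, so they are a description and no further result. Left out next were antigen receptor segments, pseudogenes, microRNAs, predicted Gm genes, Rik genes other than members and genes without a symbol. By the same measure, of the tested genes left, those most like 1110032F04Rik were Tmem38a, Car11 and Sardh (r = 0.99 each). Tmem38a (means 2.08 and 0.844 FPKM in Ebi3-Treg and Blimp1-Treg) and Sardh (4.88 and 0.253 FPKM) were low. Those most like Ift80 were Asap1 (r = 0.996), Prickle1 (r = 0.996) and Adsl (r = 0.994). Mzt2 (r = 0.998), Pdha1 (r = 0.99) and Ms4a4b (r = 0.98) were closest to Smc4, Gnl2, Trim12a and Nol8 (r = 0.98 each) to Trim59, and Fgr, Zfp217 and Pbrm1 (r = 0.99 each) to Kpna4.

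Within Smc4 lie Mir15b and Mir16-2, whose mature products are shown because they share the locus and a seed (bases 2 to 8, in capitals; RefSeq, GRCm38.p6).
mmu-miR-15b-5p: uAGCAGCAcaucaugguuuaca
mmu-miR-16-5p: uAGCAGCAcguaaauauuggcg
Mir15b was listed at 0 in all 8 libraries and Mir16-2 in all but Blimp1-Treg 3, where it was at 1.64 FPKM. Libraries of this kind are not made for microRNAs, so these values do not measure them.

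Markers of other cells were looked at beside these differences. The 6 B cell markers summed to 1607 to 2071 FPKM in Ebi3-Treg and 1941 to 2476 FPKM in Blimp1-Treg, none of them at 0 in a library. Ighm made up most of these sums, at 1154 FPKM or more in every library. The 7 myeloid and dendritic cell markers summed to 16.9 to 117 FPKM in Ebi3-Treg and 19.5 to 39.2 FPKM in Blimp1-Treg, with the high sums in Ebi3-Treg 1 and 2, where Lyz2 was at 99.1 and 91.1 FPKM. Summed FPKM was 185 to 365 and 229 to 412 for 4 plasma cell markers, 10.8 to 51.9 and 9.70 to 32.2 for 4 CD8 T and NK cell markers, 31.0 to 67.8 and 16.7 to 34.1 for 5 stromal and endothelial markers, and 0.334 to 10.3 and 0.602 to 9.33 for 3 erythroid markers, in Ebi3-Treg and Blimp1-Treg in that order. Xbp1 made up most of the plasma cell sums, with means of 238 and 286 FPKM in Ebi3-Treg and Blimp1-Treg. Pecam1 made up most of the stromal and endothelial sums, with means of 45.9 and 26.5 FPKM. In that list Cdh5 was at most 0.176 FPKM, and Col1a1 went the other way (1.12 and 1.30 FPKM). No marker was at 0 in all libraries. Of the markers of other cells tested, 0 passed in limma, with 3 (Lyz2, Pecam1 and Ighm) at an unadjusted p under 0.05. With the replicate block Lyz2 (log2 difference 1.79, limma adjusted p = 0.016), Pecam1 (0.77, 0.00285) and Cd79b (0.47, 0.0135) were higher in Ebi3-Treg, and Ighm (-0.43, 0.0482) was lower. Cd3e, of the T cells themselves, was lower with the block too (-0.45, 0.00876), and its populations did not overlap. In replicates 3 and 4, Cd79a was at most 2.11 FPKM. Lyz2 was at 8.00 and 20.4 FPKM in Ebi3-Treg against 3.74 and 8.44 FPKM in Blimp1-Treg (log2 difference 1.05). The stromal and endothelial sum, mostly Pecam1, was 48.5 and 51.0 FPKM against 29.2 and 34.1 FPKM. The log2 differences of 1110032F04Rik, Ift80, Smc4 and Trim59 in these replicates alone were 2.27, 2.28, 1.34 and 0.56. Without both libraries numbered 1 they were 2.22, 2.22, 1.13 and 0.48. The part of transcripts of other cells in the members' differences was not tested.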

How the data were processed

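The deposited values are FPKM, which the authors gave in 2 tables. The submitters' processing notes name TopHat2 2.0.12, HTSeq 0.6.1, Bowtie2 2.2.3 and the build mm9. The annotation and the handling of strand are among what is not given in the sources used here. Per the labels' protocols, sort purity was above 90% and libraries came from 10 pg to 10 ng of RNA with a low-input SMART-Seq kit. Symbols, gene order and exon lengths came from GENCODE M21 (GRCm38), so no gene coordinates are given. Promoter and microRNA sequences came from RefSeq (GRCm38.p6) with that build's positions. Whole reads were recovered from the FPKM steps within 0.001, from the reference exon length or else the shortest length that fitted, which was chosen to make them whole. They cover counting error only.

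A gene was kept if 4 or more libraries reached 1 FPKM, and tested with limma 3.58.1 in R 4.3.3 on log2(FPKM + 1), with population and table as terms, a variance trend and two-sided Benjamini-Hochberg adjusted p under 0.05 over all 12273 genes. The fit was tested on simulated data with independent errors and no difference between tables. That test does not cover libraries that deviate together, as described below. Log2 differences are Ebi3-Treg minus Blimp1-Treg and understate low genes. Whether replicates are separate animals is not stated, so a p-value reflects only the spread among these samples, which may be technical. Same-numbered libraries deviated together from their population means (r = 0.62, 0.89, 0.53 and 0.54), so the replicate number was also fitted as a block. These deviations include the difference between tables. In the first table the other number did not correlate in this way (-0.27 and -0.02). In the second table it correlated slightly more than the same number (0.56 and 0.61), so no pairing beyond the table is shown there. Members, lists and tests were chosen with earlier results of these data known. Named genes besides the members were the 3 most correlated with each, less the kinds of gene left out above, and of each list at most 3 with the smallest p. Ppm1l, Ift46, Ift52, Ncaph2, Ncapd2, the markers and the overlapping models were chosen after their values were seen.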

Additional observations from a re-analysis of the deposited data

Results flagged for a closer look

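Among 14 sets of 4 libraries (the 6 genes and Il12a in each population), 2 had a library far from the other 3, by a gap over range above 0.829, where chance gives about 1 set in 20. Trim59 was at 185 FPKM in Ebi3-Treg 4, against 149 to 150.9 FPKM in the other Ebi3-Treg libraries. Il12a was at 1.49 FPKM in Ebi3-Treg 1, against 0 to 0.205 FPKM in the others, and the same library had Cd79a at 65.1 FPKM. The part of those B cell transcripts in the Il12a value was not tested.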

How the results depend on the processing

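The number of genes past the threshold between populations was 772. It was 420 without the filter on low values, 441 without the table term, 1970 and 1962 without both libraries numbered 1 or 2, 2752 with the replicate block, 0 in replicates 1 and 2 alone, 1347 in replicates 3 and 4 alone, and 341 to 771 with single libraries left out. Between tables it was 1032, 240 without the filter, 7405 without both libraries numbered 1, and 51 to 3862 with single libraries left out. With a common upper quartile the 896 calls between tables were 364 higher and 532 lower in replicates 3 and 4, against 313 and 719 as deposited. The causes were not tested. The log2 difference of 1110032F04Rik was 2.55 with a pseudocount of 0.1, against 2.25 with 1, since a smaller pseudocount compresses low values less. The population differences of the other 4 tested members stayed within 1 SD of their main value under every alternative run. That SD is the spread of single libraries within a population, the difference between tables included, and not the error of the difference. Within it, Smc4 ran from 0.78 to 1.34 and was not past the threshold in several runs, as given above. Depth limits Schip1 and Il12a, and 4 libraries a population limit the rest.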
